A study of Mus musculus with 2 samples.

Results

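The cells described here were CD8 T cells from tumours of MB49, a bladder cancer line grown in mice, that carried transcripts of both Pdcd1 and Havcr2, the genes for the inhibitory receptors PD-1 and TIM-3. They were 670 of 6987 barcodes kept from 2 droplet libraries, 411 female and 259 male. A kept barcode had at least 500 genes and at most 10% mitochondrial transcripts. Of these, 3023 barcodes formed the CD8 base, with at least 2 unique molecular identifiers (UMIs, each one counted transcript) of Cd8a and Cd8b1 together, at most 25000 UMIs in all, and 0 UMIs of Foxp3, Cd4, Lyz2 and Mki67. A member was a base barcode with at least 1 UMI of Pdcd1 and of Havcr2, fewer than 2 UMIs of Ifng and fewer than 10 UMIs of the granzymes D to G (Gzmd, Gzme, Gzmf and Gzmg). The comparison group, called double-negative below, was the 853 base barcodes with 0 UMIs of both receptors, 372 female and 481 male; it had no limit on Ifng or on these granzymes.

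Both libraries came from tumours of day 14 in C57BL/6J mice of 12 to 14 weeks, with no treatment or other allele named, and differed by the sex of the host. The number of mice pooled in a library is not given in the sources used here. There was 1 library per sex, so differences between the sexes cannot be told apart from differences between libraries. The labels describe a sort for viable CD4+ T cells from collagenase digests. The members had 0 Cd4 UMIs by rule and a median Cd8a count of 10 (female) and 9 (male) UMIs, so their transcripts go against the label of the sort.

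A CD8 T cell that meets its antigen for a long time, as in a tumour, can enter a state called exhaustion. Such cells keep several inhibitory receptors on the surface and lose part of their cytokine output, and in the late form they keep perforin and granzymes. An earlier form, marked by the transcription factor TCF-1 (Tcf7), can divide and give rise to the late one.

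The female library held 3658 barcodes and 55880364 UMIs, and the male library 3708 barcodes and 50946624 UMIs. The median member held 10461 UMIs (female) or 9471 UMIs (male), and the median double-negative barcode 6363 or 6242. Of all barcode names, 16 occurred in both libraries, and none of them was a member in both. Xist gave 921 UMIs in female and 0 in male members, and Ddx3y gave 0 and 115, as the labels of sex have it. All classes were cut from the same barcodes whose transcripts are compared, and cells are not replicates, so every value below is a description with no test. Levels are in CPM, a class's UMIs of a gene scaled to a common total of the class, and intervals are exact 95% intervals that cover counting error only. Those of thinned shares rest on expected counts, and those of differences of shares are combined from the bounds of the shares, so both are approximate.

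Members were chosen by their own Pdcd1, Havcr2, Ifng and granzyme counts, which are given here as a description. Where 2 values follow each other without a name, the female library comes first. Pdcd1 (chr1:94038305-94052553, minus strand, GRCm38) stood at 999.6 CPM in female and 864 CPM in male members, with a median of 9 and 6 UMIs per barcode. Havcr2 (chr11:46454935-46481255, plus strand) stood at 281 and 336 CPM, with a median of 2 UMIs in each library. Havcr2 was thus the thinner of the 2 criteria: 146 of 411 female and 95 of 259 male members held exactly 1 Havcr2 UMI, against 43 and 30 with exactly 1 Pdcd1 UMI. Ifng was at 0 UMIs in 302 female and 171 male members, and the granzymes D to G were at 0 in 380 and 225.

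The edges of the rule were compared by their Lag3 level. Members with exactly 1 Pdcd1 UMI held 511 and 546 CPM Lag3, and barcodes with Havcr2 but no Pdcd1 UMI held 270.0 and 331 CPM. Members with exactly 1 Havcr2 UMI held 678 and 644 CPM, and barcodes with Pdcd1 but no Havcr2 UMI held 601 and 474 CPM. At the Ifng limit, members with 1 UMI held 946 and 955 CPM, and double-positive barcodes left out at 2 UMIs held 749 and 611 CPM. At the granzyme limit, members with 5 to 9 UMIs (10 and 7 barcodes) held 1315 and 1234 CPM. Those left out at 10 to 14 UMIs (6 and 5 barcodes) held 878 and 1163 CPM. Other genes can step otherwise. At the Pdcd1 edge, Gzmb stood at 1447 and 1722 CPM in members with exactly 1 Pdcd1 UMI and at 1685 and 2143 CPM in barcodes with none. Prf1 and Cxcr6 stepped as Lag3 did there.

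Members made up 26.1% of the female CD8 base (23.9 to 28.3%) and 17.9% of the male one (16.0 to 19.99%). The female share was 8.15 points larger (5.16 to 11.1). A deeper barcode is more likely to show both receptors, so each base barcode was also thinned to 3669 UMIs. The 123 female and 179 male shallower barcodes were left out. Thinning was applied to Pdcd1 and Havcr2 only, and the limits on Ifng and granzymes D to G stayed on the unthinned counts. The thinned shares were 15.8% (14.0 to 17.8%) and 11.5% (9.83 to 13.4%), a difference of 4.27 points (1.63 to 6.88). Double-negative barcodes went the other way, with 23.6% of the female and 33.3% of the male base before thinning. After thinning they were 30.5% and 40.6%. With at least 2 UMIs asked of each receptor, the thinned difference was 0.711 points.

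The members' marker genes Lag3, Prf1 and Cxcr6 were not part of the rule. Lag3 (chr6:124904361-124911705, minus strand), a further inhibitory receptor, stood at 921 CPM in female and 999.6 CPM in male members, and at 95.1 and 81.7 CPM in double-negative barcodes. Prf1 (chr10:61297833-61304680, plus strand), which encodes perforin, the pore-forming protein of cytotoxic granules, stood at 436 and 521 CPM against 35.7 and 37.9 CPM. Cxcr6 (chr9:123806475-123811760, plus strand), a chemokine receptor of tissue T cells, stood at 751 and 673 CPM against 199 and 165 CPM. Members lay above the double-negative barcodes for all 3 genes in both libraries, by a log2 ratio of 3.28 (3.08 to 3.47) and 3.61 (3.43 to 3.80) for Lag3, 3.61 (3.30 to 3.94) and 3.78 (3.51 to 4.06) for Prf1, and 1.92 (1.78 to 2.06) and 2.03 (1.89 to 2.18) for Cxcr6, female first.

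The members were uneven among themselves. The median member held 744 and 748 CPM Lag3, while the 25th percentile lay at 316 and 356 CPM. Prf1 was at 0 UMIs in 29.4% of female and 30.5% of male members, and its 75th percentile lay at 527 and 629.8 CPM. Cxcr6 was the most even of the 3, with 91.7% of female and 93.4% of male members holding at least 1 UMI.

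Depth and free RNA could each move such shares, so they were set at 3669 UMIs and beside cells that should lack the genes. At that depth, 80.8% of female and 80.8% of male members held a Lag3 UMI, against 14.7% and 12.9% of double-negative barcodes. For Prf1 the shares were 52.4% and 54.0% against 11.7% and 9.97%. Tumour-like barcodes (at least 10 Krt8 UMIs and at most 1 Cd3 UMI, 28 female and 22 male, median 53109.5 and 44362.5 UMIs) held 0 Prf1, Cxcr6, Pdcd1 and Tcf7 UMIs. Havcr2 differed: before thinning, 14 of the 28 female and 9 of the 22 male tumour-like barcodes held a Havcr2 UMI, and 10.1% and 5.14% did at 3669 UMIs. Within barcodes of 5000 to 10000 UMIs, Lag3 stood at 769 and 847 CPM in members against 79.1 and 62.5 CPM, and Prf1 at 244 and 378 CPM against 35.7 and 31.8 CPM.

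**Figure D1:**
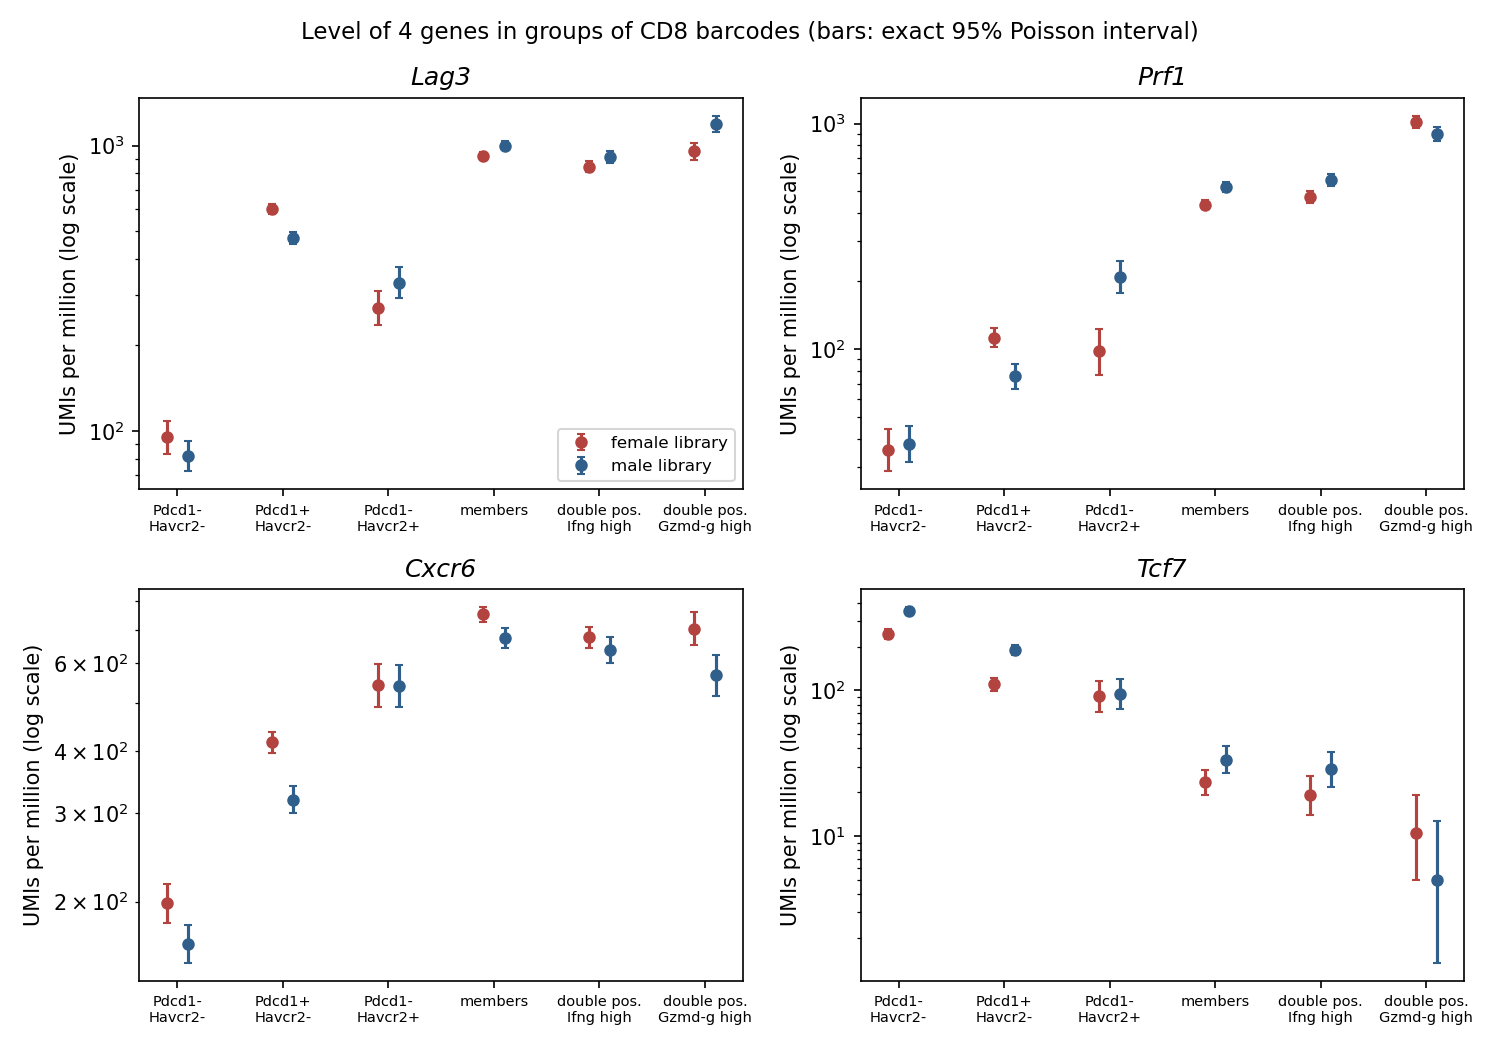
Level of Lag3, Prf1, Cxcr6 and Tcf7 in CPM (log axis) in 6 groups of CD8 base barcodes, female library in red and male in blue; points are class sums and bars exact 95% Poisson intervals. Members lie far above the double-negative barcodes for the first 3 genes and far below for Tcf7, and barcodes with 1 of the 2 receptors lie between them in each panel.

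In Lag3 and Prf1, barcodes with only 1 of the 2 receptors lay between double-negative barcodes and members. Lag3 stood at 601 and 474 CPM in barcodes with Pdcd1 only and at 270.0 and 331 CPM in those with Havcr2 only. Prf1 stood at 112 and 75.4 CPM with Pdcd1 only and at 97.9 and 209 CPM with Havcr2 only. The double-positive barcodes that the rule left out for granzymes D to G (63 female, 53 male, deeper at a median of 15491 and 15249 UMIs) held more Prf1, 1016 and 900.4 CPM. Those left out for Ifng (177 female, 155 male) were close to members in Lag3, at 845 and 909 CPM, and held more Ccl4, 1772 and 3586 CPM against 232 and 515 CPM in members.

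Across the transcriptome, a gene was called higher or lower in members where the ratio was at least 2-fold in both libraries and the interval's nearer bound at least 1.5-fold in both. Of 7414 genes with at least 10 CPM in 1 class and 20 UMIs in each library, 266 were higher (3.59%) and 192 were lower (2.59%). The median gene lay at log2 ratios of 0.08 (female) and 0.15 (male). The rule used this contrast through Pdcd1 and Havcr2, and nothing is read from these counts beyond the background for the lists below. TMM scaling shifts every male ratio by -0.15 and every female one by -0.03, and gives 229 higher and 230 lower genes.

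**Figure D2:**
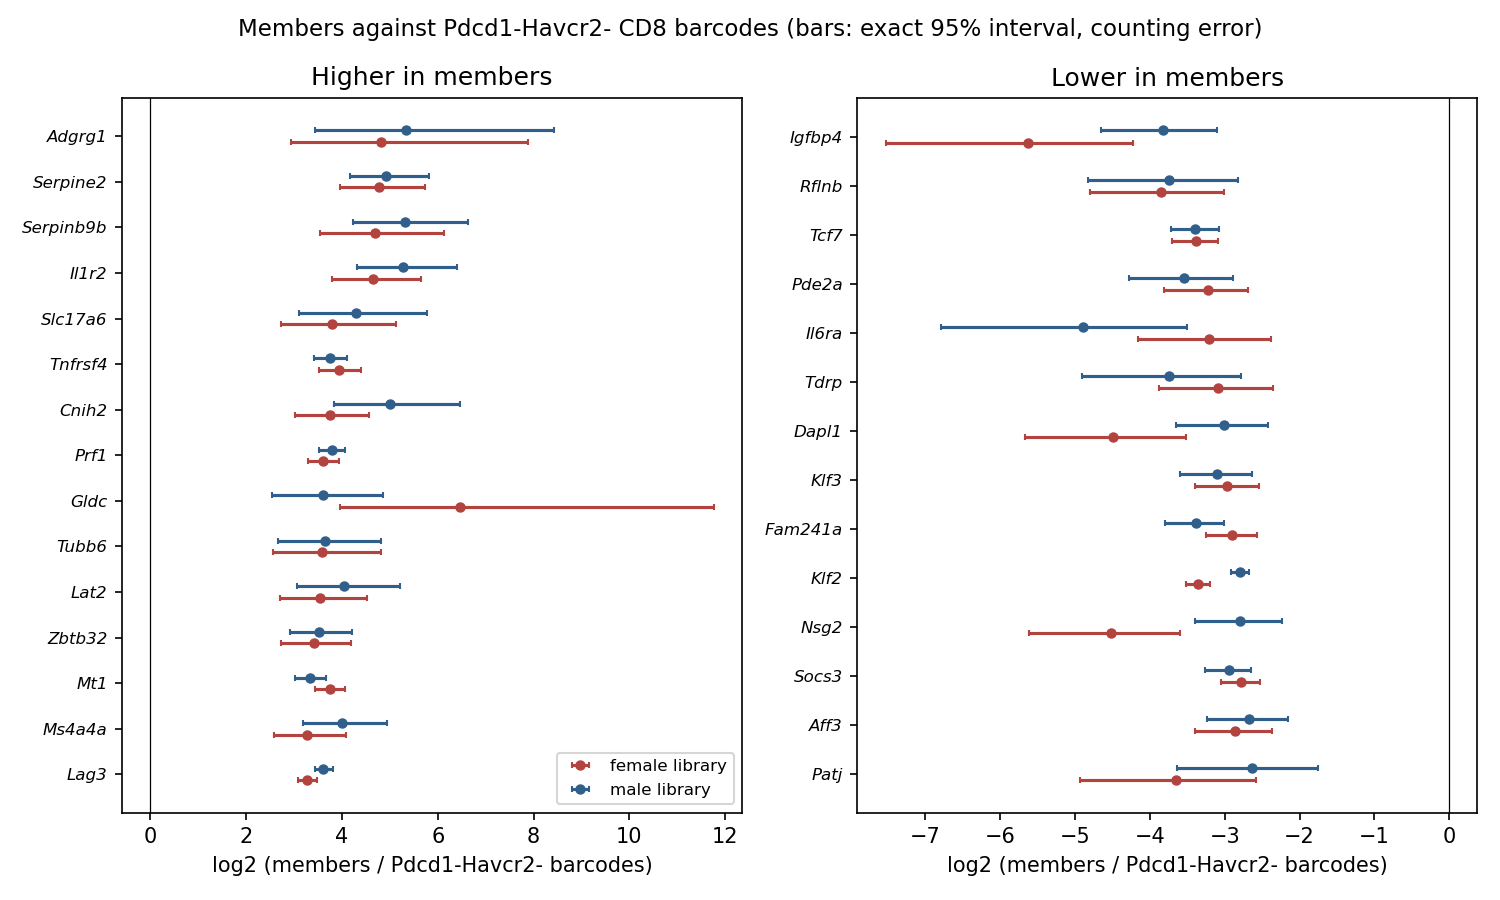
Log2 ratio of members over double-negative barcodes for the 15 genes highest and 14 of the 15 genes lowest in members, female library in red and male in blue, with exact 95% intervals. The genes were chosen as called in both libraries, which fixes their sign; the lists run from Lag3 (3.28 and 3.61) up to Adgrg1 (4.83 and 5.34), and from Patj (-3.66 and -2.64) to Igfbp4 (-5.63 and -3.83).

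Among the genes highest in members were a decoy receptor, a costimulatory receptor and protease inhibitors. Il1r2, a decoy receptor for interleukin-1, stood at 113 and 109 CPM in members and at 4.51 and 2.84 CPM in double-negative barcodes. Serpine2, an inhibitor of serine proteases, stood at 135 and 134 CPM against 4.92 and 4.42 CPM, and Serpinb9b, of the family of granzyme inhibitors, at 63.0 and 87.4 CPM against 2.46 and 2.21 CPM. Adgrg1, the adhesion receptor GPR56 found on cytotoxic lymphocytes, stood at 23.2 and 25.6 CPM against 0.820 and 0.631 CPM. These sums came from a minority of members: an Il1r2 UMI was held by 99 of 411 female and 62 of 259 male members, an Adgrg1 UMI by 75 and 44, a Serpinb9b UMI by 35 and 29, and a Serpine2 UMI by 133 and 67. The others were Tnfrsf4 (OX40, costimulation), Zbtb32 (a repressor of lymphocyte proliferation), Lat2 (a signalling adaptor), Gldc (the glycine cleavage enzyme), Slc17a6 (a glutamate transporter), Cnih2, Tubb6, Ms4a4a, Mt1, Lag3 and Prf1, at log2 ratios of 3.28 or more in each library. The low counts of the double-negative class can rest on 1 barcode, which held 66.7% of the female and 57.1% of the male Serpinb9b UMIs of that class.

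The genes lowest in members included markers of resting and recirculating T cells. Tcf7 (chr11:52252371-52283014, minus strand) stood at 23.5 and 33.5 CPM in members and at 246 and 353 CPM in double-negative barcodes, log2 ratios of -3.39 (-3.70 to -3.09) and -3.40 (-3.72 to -3.08). Klf2, which drives the receptors for leaving tissue, stood at 86.0 and 230.1 CPM against 879 and 1603 CPM. Both were lower in members in each library. The others ranged down to Igfbp4 and included Il6ra (interleukin-6 receptor), Socs3 (a brake on cytokine signalling), Klf3, Pde2a, Aff3, Dapl1, Nsg2, Rflnb, Tdrp, Fam241a and Patj. Of the few male member UMIs, 1 barcode held 62.5% for Igfbp4 and 50% for Dapl1.

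**Figure D3:**
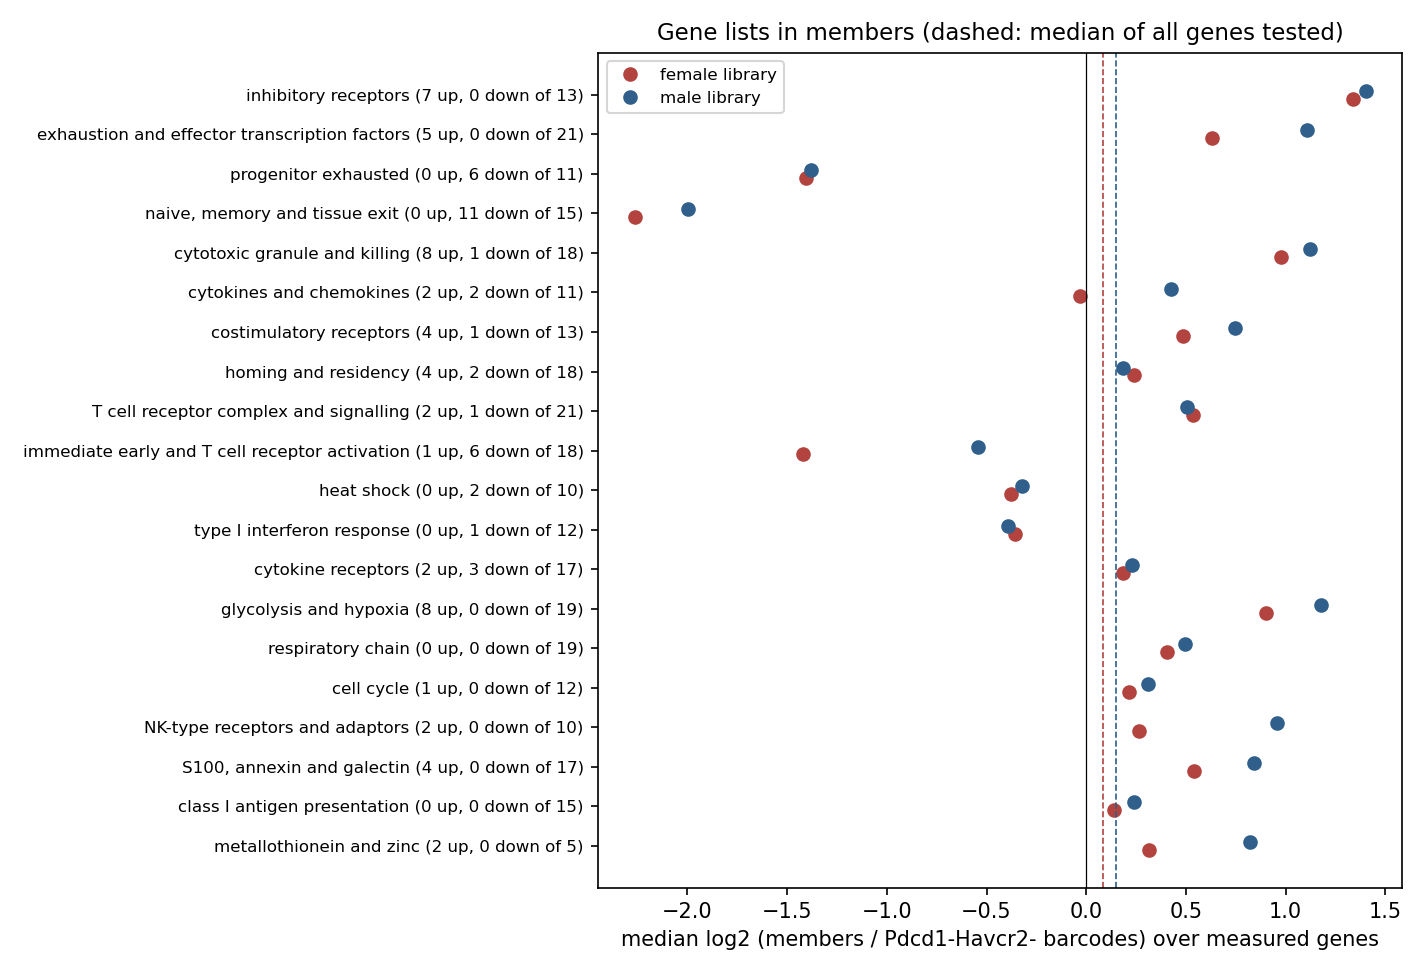
Median log2 ratio of members over double-negative barcodes for the measured genes of 20 lists, female library in red and male in blue, with the number called higher and lower in brackets; dashed lines mark the median of all genes tested. Inhibitory receptors lie highest (1.34 and 1.40) and the list of naive, memory and tissue exit genes lowest, at -2.26 in the female library.

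Inhibitory receptors were higher in members beyond the genes of the rule. Of 13 measured members of the list, 7 rose and 0 fell, with a median log2 ratio of 1.34 and 1.40. Tigit, which competes for the ligands of costimulation, stood at 429 and 409 CPM against 128 and 92.4 CPM, and Ctla4 at 467 and 501 CPM against 159 and 118 CPM. Entpd1 (CD39, an ectonucleotidase) stood at 86.9 and 76.8 CPM against 22.1 and 12.9 CPM. Lag3, Cd160, Lilrb4a and Pvrig were the other 4. Klrc1 (NKG2A) reached 813 and 823 CPM against 515 and 311 CPM, a log2 ratio of 0.66 and 1.40, and did not pass in the female library.

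Of the transcription factors of exhaustion and effector function, 5 of 21 rose and 0 fell, with medians of 0.63 and 1.11. Irf8, an interferon regulatory factor, stood at 373 and 245 CPM against 44.7 and 24.6 CPM. Id2, which restrains E proteins in effector cells, stood at 496 and 542 CPM against 206 and 192 CPM. Bhlhe40, Rbpj and Zeb2 were the other 3. Tox, the factor most tied to exhaustion, stood at 85.3 and 85.1 CPM against 41.0 and 56.5 CPM, log2 ratios of 1.06 and 0.59, and did not pass. Nr4a1 stood at 130.0 and 185 CPM against 369.7 and 224 CPM, and did not pass either.

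The lists of less differentiated cells were lower. Of 11 genes of the progenitor exhausted form, 6 fell and 0 rose (medians -1.41 and -1.38): Tcf7, Id3, Bach2, Cxcr5, Myb and Bcl6. Id3 stood at 2.46 and 22.2 CPM in members against 45.1 and 71.6 CPM. Of the 59 male member UMIs of Id3, 1 barcode held 39.0%. Of 15 genes of naive and memory cells and of tissue exit, 11 fell and 0 rose. S1pr1, the receptor that leads T cells out of tissue, stood at 33.1 and 42.9 CPM against 171 and 171 CPM.

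Genes of killing were higher in part. Of 18 measured, 8 rose and 1 fell (medians 0.98 and 1.12). Gzmb (granzyme B) stood at 2255 and 2279 CPM in members against 620.1 and 440.1 CPM, and Gzmc at 113 and 78.0 CPM against 10.2 and 15.1 CPM. For Gzmc, 1 barcode held 47.3% of the male member UMIs and 1 held 60% of the female double-negative ones. Nkg7, Cst7, Serpinb9, Serpinb6b, Ctsb and Prf1 were the other 6 that rose. Gzmm fell, with 9.83 and 5.27 CPM in members against 28.7 and 26.2 CPM. Gzma stood at 821 and 904 CPM against 1284 and 631 CPM and Gzmk at 207 and 266 CPM against 150.4 and 110 CPM, and neither passed. Granzymes share sequence, and how reads were split between near-identical copies was not tested.

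Of 11 measured cytokines and chemokines, 2 rose and 2 fell, with medians of -0.03 and 0.43; Ifng itself is bounded by the rule. Csf1 (macrophage growth factor) stood at 70.2 and 104 CPM against 24.2 and 20.5 CPM. Tnf stood at 21.0 and 22.97 CPM against 49.2 and 49.8 CPM, and Tnfsf8 at 2.23 and 6.03 CPM against 20.5 and 35.3 CPM. The calls of Tnf were lost under 4 alternatives, among them thinning and leaving out the limits on Ifng and granzymes D to G. Those limits hold for members and not for double-negative barcodes, so the rule can also lower cytokines made together with Ifng. Spp1, the other that rose, had 61.6% of its female member UMIs in 1 barcode. Ccl5 stood at 8675 and 8369 CPM against 9511 and 6224 CPM and did not pass.

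Of 13 costimulatory receptors, 4 rose and 1 fell (medians 0.49 and 0.75). Tnfrsf9 (4-1BB) stood at 879 and 781 CPM against 154 and 97.2 CPM, and Tnfrsf4 at 295 and 319 CPM against 19.3 and 23.7 CPM. Tnfrsf18 (GITR) and Icos rose too, and Cd7 fell. Of 18 genes of homing and residency, Cxcr6, Ccr8, Cx3cr1 and Rgs16 rose and Cxcr4 and Cd69 fell. Ccr8, a chemokine receptor, stood at 82.2 and 96.0 CPM against 7.79 and 10.1 CPM, while Itgae, the integrin of epithelial residency, stood at 13.6 and 15.4 CPM against 36.1 and 32.5 CPM and did not pass.

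Some genes of early activation were lower in members. Of 18 immediate early genes, 6 fell and 1 (Dusp4) rose, with medians of -1.42 and -0.54. Fos stood at 66.1 and 116 CPM in members against 464 and 426 CPM, and Jun at 85.3 and 154 CPM against 430.3 and 510.4 CPM. Of 10 heat shock genes 2 fell, Hspa1a and Hspa1b, and 8 did not pass. Both lost the call without the limits on Ifng and granzymes D to G, and 1 barcode held 34.3% of the female and 48.5% of the male member UMIs of Hspa1a. Of 12 type I interferon response genes, 1 fell (Rtp4) and 0 rose.

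Some genes of glycolysis were higher in members. Of 19 genes of glycolysis and hypoxia, 8 rose and 0 fell (medians 0.90 and 1.18). Pgk1 stood at 782 and 791 CPM against 266 and 257 CPM, Tpi1 at 647 and 686 CPM against 204 and 168 CPM, and the lactate exporter Slc16a3 at 124 and 94.5 CPM against 16.8 and 14.2 CPM. Of 19 respiratory chain genes, 0 passed in either direction, with medians of 0.41 and 0.50 that also lay above those of all genes, and Cox5a was at log2 ratios of 0.60 and 0.75. The difference between the lists was not tested.

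Further lists are set beside the 3.59% higher and 2.59% lower over all genes tested. The T cell receptor complex and its signalling had 2 higher (Cd3g, which lost its call under TMM and 4 other alternatives, and Sh2d2a) and 1 lower (Socs1) of 21, cytokine receptors 2 higher (Il2ra and Il10ra) and 3 lower (Il4ra, Il6st and Ifngr2) of 17, and the cell cycle 1 higher (Ube2c) of 12. NK-type receptors had 2 higher of 10 (Klrd1 and Klre1), S100 proteins, annexins and galectins 4 of 17 (S100a11, Anxa2, Anxa4 and Capg), and class I antigen presentation 0 of 15. Barcodes with Mki67 are absent by rule.

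The metallothioneins, small proteins that bind zinc and copper, were higher in members. Mt1 (chr8:94179082-94180327, plus strand) stood at 509 CPM in female and 279 CPM in male members, and at 38.1 and 27.8 CPM in double-negative barcodes, log2 ratios of 3.74 (3.44 to 4.06) and 3.33 (3.01 to 3.67). The male value ran from 2.30 as a mean over barcodes to 4.46 among barcodes of 5000 to 15000 UMIs. Mt2 stood at 47.8 and 31.6 CPM against 3.28 and 3.47 CPM. Slc30a1, which exports zinc, stood at 25.5 and 12.8 CPM against 25.4 and 9.46 CPM and did not pass. Mt1 was also abundant in other barcodes: at 3669 UMIs a Mt1 UMI was held by 41.6% of female and 32.4% of male members, 7.63% and 4.65% of double-negative, 39.7% and 32.7% of Treg-like, and 95.9% and 99.7% of tumour-like barcodes. The part of free RNA in these shares was not tested.

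Metallothionein genes are textbook targets of the zinc-sensing factor MTF1, which binds metal response elements. Their promoters are shown because both genes moved together and Slc30a1 is a further known target; this choice was made after the values were seen. Each runs from 250 bases before to 50 bases after the RefSeq start (GRCm38.p6), and capitals mark matches on either strand to the element core, searched as TGCACNC or TGCGCNC.
Mt1 (chr8:94178839-94179138, plus strand): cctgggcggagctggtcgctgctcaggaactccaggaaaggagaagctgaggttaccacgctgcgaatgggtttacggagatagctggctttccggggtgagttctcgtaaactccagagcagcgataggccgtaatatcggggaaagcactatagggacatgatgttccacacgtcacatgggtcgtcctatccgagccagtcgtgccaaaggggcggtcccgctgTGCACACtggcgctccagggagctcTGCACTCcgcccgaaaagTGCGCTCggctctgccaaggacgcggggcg
Mt2 (chr8:94172368-94172667, plus strand): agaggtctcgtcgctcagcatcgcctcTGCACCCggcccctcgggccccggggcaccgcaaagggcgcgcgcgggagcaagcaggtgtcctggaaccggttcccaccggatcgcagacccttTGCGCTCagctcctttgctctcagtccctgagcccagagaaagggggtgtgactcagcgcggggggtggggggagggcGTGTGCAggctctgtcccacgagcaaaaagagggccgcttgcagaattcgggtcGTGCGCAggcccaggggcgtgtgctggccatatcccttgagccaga
Slc30a1 (chr1:191906531-191906830, plus strand): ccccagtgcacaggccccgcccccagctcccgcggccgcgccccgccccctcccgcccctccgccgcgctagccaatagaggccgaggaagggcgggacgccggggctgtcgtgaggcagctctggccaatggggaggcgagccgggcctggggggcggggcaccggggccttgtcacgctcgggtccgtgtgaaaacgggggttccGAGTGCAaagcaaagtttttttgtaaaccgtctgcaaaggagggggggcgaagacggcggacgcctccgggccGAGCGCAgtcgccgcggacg
Mt1 held 3 matches, Mt2 4 and Slc30a1 2. Among 32851 promoters of the same length in the table, 25.7% held at least 1 match, 7.11% at least 2, 1.97% at least 3 and 0.517% at least 4. A match describes letters and is not evidence of binding, and Mtf1 itself stood at 21.9 and 25.6 CPM in members against 17.6 and 14.5 CPM and did not pass.

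Members differed by the other genes they held. The 44 female and 33 male members with a Tcf7 UMI (10.7% and 12.7%) held 321 and 391 CPM Lag3, against 997 and 1117 CPM in members without one, and 121 and 179 CPM Prf1 against 476 and 587 CPM. Members with an S1pr1 UMI (17.0% and 18.1%) held 447 and 296 CPM Lag3 against 1018 and 1159 CPM. A minority with transcripts of the earlier form and of tissue exit therefore had less of both genes in each library. These members also held less of the 2 receptors of the rule. With Tcf7, Havcr2 stood at 164 and 188 CPM against 296 and 364 CPM without, and Pdcd1 at 634 and 584 CPM against 1046 and 918 CPM. With S1pr1, Havcr2 stood at 234 and 178 CPM against 291 and 371 CPM without. Members with Tcf7 were deeper than the rest, at a median of 11676.5 and 10807 UMIs against 10452 and 9389, and those with S1pr1 were shallower, at 9294.5 and 8423 against 10610 and 9780.5.

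Members with Entpd1 lay at the other end for Prf1 and Tcf7. The 49.4% of female and 43.6% of male members with an Entpd1 UMI held 613 and 813 CPM Prf1 against 215 and 229 CPM, and 8.06 and 15.1 CPM Tcf7 against 42.6 and 52.0 CPM. Members with Entpd1 were deeper, at a median of 11996 and 11328 UMIs against 8843.5 and 8140. Among members of 8000 to 13000 UMIs, Prf1 stood at 504 and 846 CPM with Entpd1 against 188 and 187 CPM without. Lag3 stood there at 928 and 1591 CPM with Entpd1 against 790 and 625 CPM without, a smaller step in the female library.

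T cell receptor beta segments, which the rule did not use, were assigned from the most counted Trbv gene with at least 2 UMIs, in 392 female and 242 male members and in 325 and 417 double-negative barcodes. Trbv20 was held by 17.6% of female members (14.0 to 21.7%), 2.15% of female double-negative barcodes (0.870 to 4.39%), 0.826% of male members and 2.40% of male double-negative barcodes. Trbv5 was held by 14.5% of male members (10.3 to 19.5%), 4.32% of male double-negative barcodes and 4.08% of female members. Each of these 2 segments was thus frequent in the members of 1 library only. Trbv1 was the more frequent in members of both, 13.01% and 17.8% against 6.15% and 7.43%, and Trbv12-1 the less frequent, 9.44% and 7.85% against 21.8% and 17.3%. A segment is shared by many clones, and no clonotype was assigned.

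**Figure D4:**
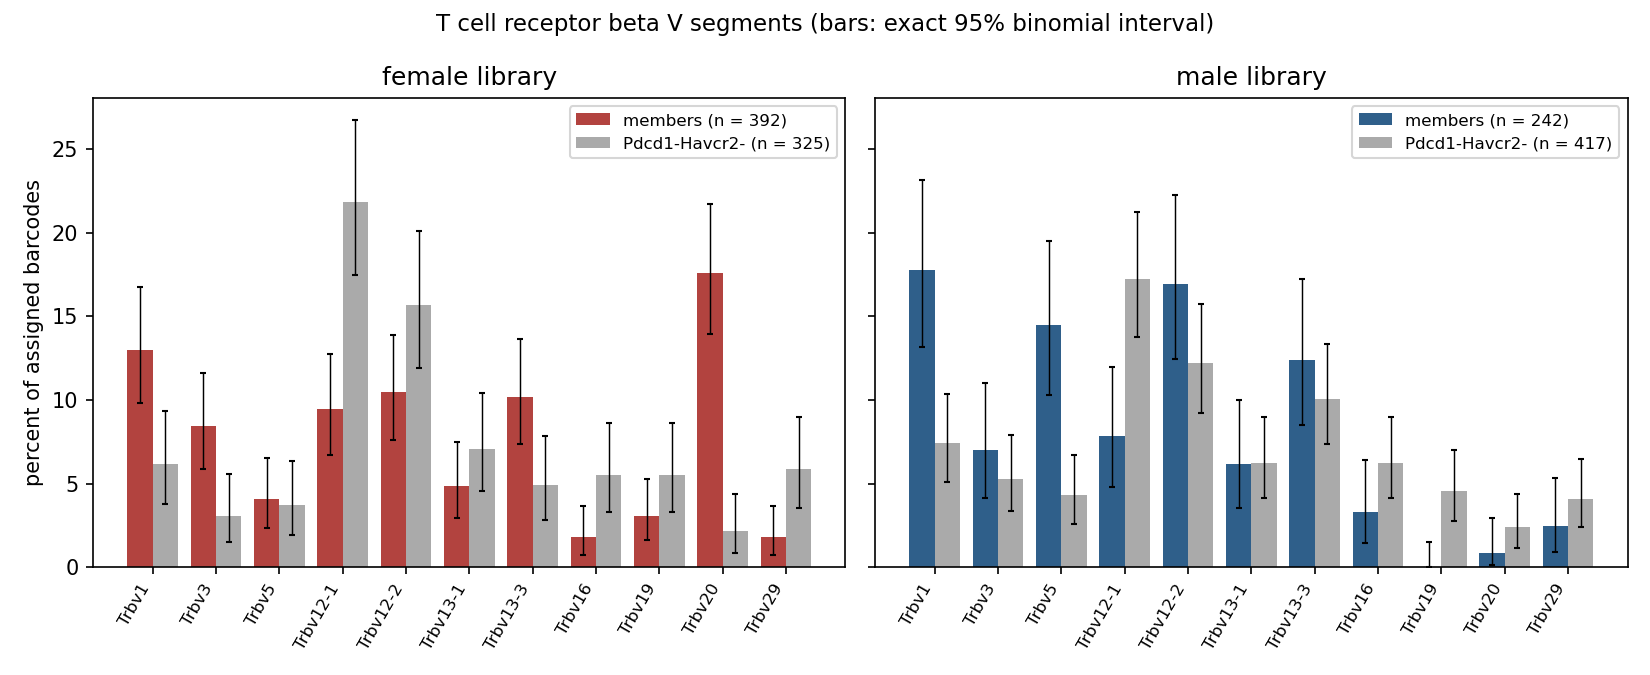
Share of assigned barcodes by T cell receptor beta V segment, for segments at 4% or more in any of the 4 groups, members in colour and double-negative barcodes in grey, with exact 95% binomial intervals. Trbv20 reaches 17.6% in female members and 0.826% in male members, and Trbv5 reaches 14.5% in male and 4.08% in female members.

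Within members, the sexes were compared as 1 library against 1 library, with a call at 1.5-fold where the interval's nearer bound also left the higher library at least 25% above the other. Of 7579 genes, 43 were higher in the female library (0.567%) and 75 lower (0.99%), and the median log2 ratio was 0.01. In double-negative barcodes 114 of 7449 were higher (1.53%) and 55 lower (0.738%). Whether the contrast differs between the 2 classes was not tested.

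Between the 2 libraries' members, Lag3 lay at a log2 ratio, female over male, of -0.12 (-0.19 to -0.05), Prf1 at -0.26 (-0.36 to -0.16) and Cxcr6 at 0.16 (0.07 to 0.24). These intervals bound the difference between the 2 libraries and do not show that the sexes are alike. Of 15 inhibitory receptors and of 17 genes of killing, 0 passed, which for lists of this size is near the background of 0.567% and 0.99%.

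Of 12 measured cytokines and chemokines, 4 were lower in female members (Ccl1, Ccl3, Ccl4 and Ccl9) and 1 higher (Spp1), with a median of -0.13. Of the female member UMIs of Spp1, 1 barcode held 61.6%. Ccl4 stood at 232 CPM in female and 515 CPM in male members, a log2 ratio of -1.15 (-1.27 to -1.03), and Ccl3 at 56.1 and 129 CPM, a ratio of -1.20 (-1.44 to -0.96). Both encode chemokines that draw in other leukocytes. Klf2 stood at 86.0 and 230.1 CPM, a ratio of -1.42 (-1.61 to -1.23), beside -0.87 in double-negative barcodes. Fos, Fosb, Jun, Egr1, Klf4 and Rhob, all induced early after stimulation, were lower too, with Fosb at 66.1 and 146 CPM. Fos lost its call under 7 alternatives, Rhob under 3, and Jun and Klf4 under 1 each. Of the 18 immediate early genes, 4 fell and 0 rose in female members. In double-negative barcodes 0 of 19 fell and 3 rose (Nr4a1, Nr4a3 and Dusp5), with a median of 0.10. There the ratios were 0.12 for Fos, 0.23 for Fosb, 0.59 for Klf4 and -0.25 for Jun.

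Of 5 measured metallothionein and zinc genes, 2 were higher in female members and 0 lower. Mt1 lay at a log2 ratio of 0.87 (0.75 to 0.99), and Slc30a1 at 0.99 (0.43 to 1.59), beside 0.46 and 1.42 in double-negative barcodes. The call of Slc30a1 was lost under thinning. Mt2 (0.60), Mtf1 (-0.23) and Slc39a6 (-0.02) did not pass. Slc15a2, a peptide transporter, stood at 74.4 and 23.7 CPM in members, a ratio of 1.65 (1.26 to 2.06), and Irf8 lay at a ratio of 0.60 (0.47 to 0.74), a call lost under thinning and 2 other alternatives. Osgin1, Mid1, Cdk5rap1, Adam9, Creld2, Fbxo32 and Ugdh were also higher, and each lost its call under at least 1 alternative. For Osgin1, Mid1 and Cdk5rap1 this was thinning. Mid1, on the X chromosome, was also called higher in female double-negative barcodes, at a ratio of 1.43.

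**Figure D5:**
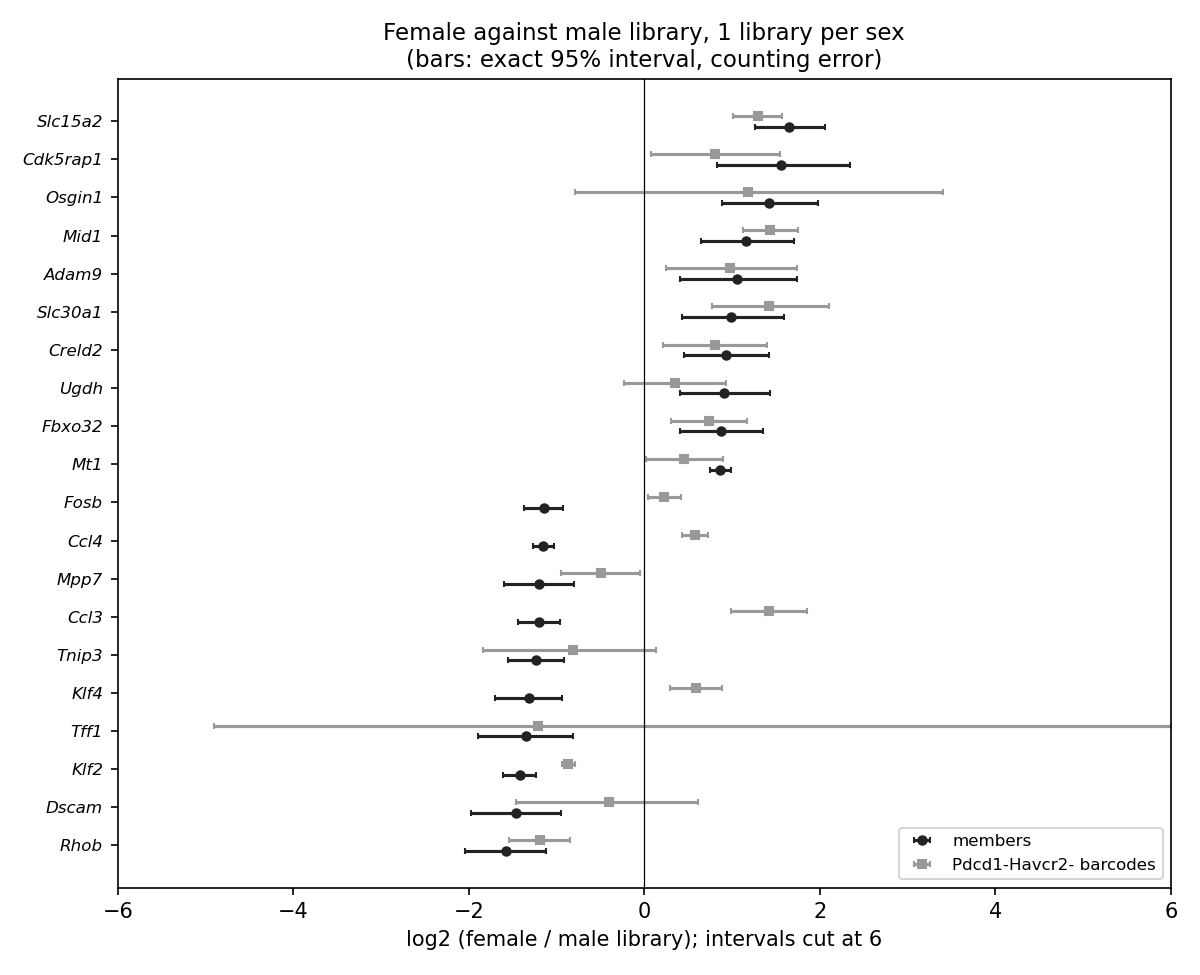
Log2 ratio of the female over the male library for the 10 genes highest and 10 genes lowest in female members, members as black circles and double-negative barcodes as grey squares, with exact 95% intervals cut at 6. Ccl3 and Ccl4 lie below 0 in members (-1.20 and -1.15) and above 0 in double-negative barcodes (1.42 and 0.57).

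Transcripts of other cell types were low in members but not even between the classes. The 4 fibroblast genes Col1a1, Col1a2, Col3a1 and Dcn summed to 0.670 CPM in female and 68.9 CPM in male members, beside 1.23 and 45.4 CPM in double-negative barcodes, and 1 male member held 3 or more of these UMIs. Col1a1 and Col1a2 were called lower in female members, and the part of such transcripts in other differences between the sexes was not tested. The 8 myeloid genes summed to 33.7 and 53.9 CPM against 11.9 and 24.3 CPM, mostly Cd74, which was called higher in members (log2 ratios of 1.39 and 1.24). The part of such transcripts in the differences between the classes was not tested. The 4 epithelial genes summed to 3.57 and 3.01 CPM with Krt8 at 0, and the neutrophil and erythroid genes to 0. B cell genes gave 17.7 and 26.0 CPM (42.6 and 62.8 CPM in double-negative barcodes), NK genes 0.670 and 1.51 CPM, and gamma-delta T genes 2.68 and 4.14 CPM. Endothelial genes gave 8.27 and 11.7 CPM (16.0 and 29.0 CPM in double-negative barcodes), from Pecam1 alone. The Treg list gave 77.3 and 78.0 CPM (35.2 and 29.7 CPM), mostly Il2ra with Foxp3 at 0 by rule. Barcodes with 3 or more UMIs were counted over all these lists but NK and gamma-delta T. They were 81 of 411 and 61 of 259 members (19.7% and 23.6%), against 7.53% and 11.4% of double-negative barcodes. Members were deeper, at a median of 10461 and 9471 UMIs against 6363 and 6242, and this count was not set at a common depth. The Treg list alone gave 40 and 24 members with 3 or more UMIs, against 7 and 5 double-negative barcodes. Il2ra was itself called higher in members. That call was lost under thinning, as a mean over barcodes, and without the barcodes counted here, which are chosen in part by Il2ra. The count can hold both Il2ra of members and transcripts of other cells. The part of each was not tested, so the count cannot be read as a share of members with transcripts of other cells. Without the barcodes counted over these lists, 261 genes were higher and 185 lower.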

How the data were processed

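Gene expression was measured in 2 libraries made with a droplet kit for the leading end of transcripts. The deposited matrices hold UMI counts, whole numbers per gene and barcode, which the authors obtained from Cell Ranger (version 7.0.1 per the file headers). The submitters' processing notes name GRCm38 and Seurat 5. Which annotation was counted, and how cells were called, is not given in the sources used here. The deposited barcode and feature files hold names only.

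Barcodes were filtered and classed as given above, and their UMIs summed per library and class with Python 3.11.15, numpy 2.4.6, scipy 1.17.1 and pandas 2.3.3. For ratios, 2 Poisson counts were compared with an exact 95% interval, with a count of 0 set to 3 counts. PCR duplicates are removed by UMIs, and intervals and floors cover counting error only. Thinned shares are exact means over all draws, except those with at least 2 UMIs of each receptor, which came from 200 random draws. Thinned gene values came from a random draw with a fixed seed. No doublet caller was run: the limit of 25000 UMIs and the excluded lineage genes stood in its place. Steps were tested on simulated counts. Coordinates are GENCODE M21 on GRCm38, matched by identifier for 99.8% of 32285 genes, and promoters are from RefSeq, GRCm38.p6.

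The members, the 20 gene lists and the 10 lists of other cell types were chosen with earlier results of these data known. Genes were named by rule: those of the class rule and markers, up to 5 of each list with at least 50 UMIs, the 15 highest and 15 lowest in members with at least 20 CPM, and the 10 highest and 10 lowest by sex, with no barcode above 25% of the gene's UMIs in the higher class or library. The lower class had no such limit. Sex genes, receptor segments, mitochondrial and ribosomal protein genes and predicted genes were left out. Of the genes lowest in members, 1 is not reported here. Other genes are named as members of the lists. Alternatives changed the filters, the depth, the rule, the scaling (edgeR 4.0.16 TMM and DESeq2 1.42.0 size factors, in R 4.3.3) and the minimum CPM. Figures were drawn with matplotlib 3.10.9.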

Additional observations from a re-analysis of the deposited data

Results flagged for a closer look

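Ccl3 differed in opposite directions by sex in the 2 classes: the log2 ratio of female over male was -1.20 in members and 1.42 in double-negative barcodes. In female double-negative barcodes, 48.6% of the Ccl3 UMIs lay in 1 barcode. The difference was not tested.

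Ccl4 differed in opposite directions by library: the log2 ratio of members over double-negative barcodes was -0.54 (female) and 1.18 (male). The rule limits Ifng in members and not in double-negative barcodes. Without the limits on Ifng and on granzymes D to G, the ratios were 1.06 and 2.80 for Ccl4, and 1.95 and 4.70 for Ccl3. The difference between libraries was not tested.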

How the results depend on the processing

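No called result reversed under the alternatives run. No paired analysis was possible because each sex has 1 library and no test was made. Of the values of single genes under an alternative, members against double-negative, 2998 kept their side of the call, 56 lost it and 38 gained it; by sex 1371 kept it, 35 lost it and 15 gained it. Of the values of gene lists, 457 kept their side, 19 gained it and 2 lost it, and by sex 234 kept it and 5 lost it. Cd3g lost its call under 5 alternatives, Tnf under 4, Il2ra and Ube2c under 3 and Icos under 2; by sex, Fos lost it under 7, Adam9 under 4 and Irf8, Creld2, Fbxo32, Rhob, Tff1 and Ugdh under 3. Lag3, Prf1, Cxcr6, Tcf7, Klf2 and Mt1 lost none, members against double-negative, and the lowest ratios were 3.02 and 3.11 for Lag3 and 3.24 and 3.45 for Prf1. The male ratio of Mt1 was 2.30 as a mean over barcodes and 4.46 among barcodes of 5000 to 15000 UMIs.

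With at least 50 CPM, 154 genes were higher and 91 lower in members, and 22 were higher and 22 lower by sex, since fewer genes are tested. With no CPM filter, 75 were higher and 220 lower by sex. Thinned barcodes gave 112 lower genes. The male library on its own gave 452 higher and the female on its own 297 lower genes, since 1 library has to pass and not 2. The share of members was 28.6% in the female library among barcodes of 5000 to 15000 UMIs. With at least 2 UMIs of each receptor it was 15.7% and 10.1%, and 5.22% and 4.505% when thinned, a difference of 0.711 points. Without the limits on Ifng and granzymes it was 41.3% and 32.3%, and 25.1% and 21.3% when thinned. Genes under about 10 CPM are limited by depth.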
